A study of Homo sapiens with 12 samples.

Results

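Small nucleolar RNA host genes are the genes from whose introns small nucleolar RNAs (snoRNAs) are cut. The set described here holds the 28 rows of the deposited count table, out of 57169, whose name is SNHG followed by a number, or is GAS5, ZFAS1, EPB41L4A-AS1 or DANCR. Of these 28 host genes, 24 had enough counts to be tested. Libraries came from tumours of SK-ES1, an established Ewing sarcoma line, grown as xenografts, which are tumours of human cells in a host animal that the labels do not name. The control group (6 libraries) is labelled wild-type, and the other group (6 libraries) is knocked down for RING1B, the Polycomb ubiquitin ligase encoded by RNF2. All 12 libraries share the cell line and its Ewing sarcoma background. The labels give no silencing construct, control construct, clone, host strain or age, and they do not tie libraries to animals. The titles of the 12 libraries carry 8 numbers, 4 of which occur in 2 libraries each. What a number marks is not given, and libraries that share one may not be independent. Any p-value here therefore reflects variation among the 12 libraries, which may be technical.

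As background, snoRNAs guide chemical marks onto ribosomal RNA. C/D snoRNAs (named SNORD) direct 2′-O-methylation, H/ACA snoRNAs (SNORA) direct pseudouridylation, and scaRNAs (SCARNA) do the same for spliceosomal RNAs in Cajal bodies. The spliced transcript that stays behind often codes for no protein, and for GAS5, SNHG1 and others it is degraded when ribosomes read it, by nonsense-mediated decay. Many hosts, like the genes of ribosomal proteins, make RNAs that start with a 5′ terminal oligopyrimidine (TOP) tract, a C followed by a run of pyrimidines, through which their translation follows growth signals.

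Each library held 23859184 to 26678325 counts in total. Levels are given as CPM, which is a count brought to the same total in every library, and a count of 3 equals 0.112 to 0.126 CPM. The knock-down showed in RNF2 itself, whose mean fell from 47.6 ± 8.44 to 17.7 ± 4.56 CPM (SD over 6 libraries each) without overlap, a log2 fold change of −1.43 with an SE of 0.174 and an edgeR adjusted p = 0.00347. The summed level of 10 Ewing sarcoma markers was 2862 to 3287 CPM in control and 3223 to 3703 CPM in knock-down, although CD99, a defining marker, was at 0 in every library. Its row lists exons on both the X and the Y chromosome. Genes listed as host cell markers were also summed, in control and knock-down. Leukocyte genes gave 5.63 to 24.9 and 7.21 to 32.5 CPM (CD3E at 0 in every library), and endothelial genes 16.7 to 27.4 and 17.0 to 27.6 CPM. Fibroblast and pericyte genes gave 575 to 1595 and 414 to 1627 CPM. Of these, 9 were tested, with 4 log2 fold changes above 0 (highest DCN, 0.71) and 5 below (lowest COL3A1, −0.47). All are rows of human genes, so host reads and the tumour cells' own expression cannot be told apart.

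The host genes differ in what their introns carry. Among the 28, 9 hold C/D snoRNAs only, 10 hold H/ACA snoRNAs only, 3 hold more than 1 class (GAS5, SNHG12 and SNHG25), 4 hold a scaRNA (SNHG10, SNHG20, SNHG21 and SNHG22) and 2 (SNHG27 and SNHG28) hold none that is annotated. GAS5, whose snoRNAs are not named rows of the table, carries 11 by RefSeq: SNORD44, SNORD47, SNORD74 to SNORD81 and SNORA103. SNHG14 is by far the fullest, with 83 rows inside its span, of which 48 belong to the SNORD115 family and 30 to the SNORD116 family. The following snoRNAs show what several of the hosts described below release, and are GENCODE release 29 transcripts on hg38. Capitals mark the C box TGATGA and the D box CTGA of C/D snoRNAs, and the ACA that stands 3 bases from the end of H/ACA snoRNAs. The boxes were searched on the transcript strand, TGATGA in the first 25 bases and CTGA in the last 20. The first TGATGA found is the one marked. In SNORD115-1 it starts at base 5, and an overlapping TGATGA starts at base 8, where SNORD115-12 of the same family has it. Which of these acts as the C box of SNORD115-1 was not examined. Of all 288 annotated C/D transcripts, 65.3% hold both by these rules, and 75.2% of 149 H/ACA transcripts hold the ACA.
SNORD12: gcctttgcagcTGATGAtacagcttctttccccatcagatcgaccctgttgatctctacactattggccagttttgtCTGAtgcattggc
SNORD12B: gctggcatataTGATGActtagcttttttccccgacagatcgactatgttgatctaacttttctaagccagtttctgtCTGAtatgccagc
SNORD12C: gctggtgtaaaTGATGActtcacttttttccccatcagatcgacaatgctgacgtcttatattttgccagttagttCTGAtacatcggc
SNORD50B: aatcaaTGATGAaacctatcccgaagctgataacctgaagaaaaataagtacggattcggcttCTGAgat
SNORA13: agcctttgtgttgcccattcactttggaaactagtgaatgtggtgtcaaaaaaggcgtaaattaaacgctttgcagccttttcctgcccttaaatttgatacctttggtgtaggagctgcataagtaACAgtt
SNORA24: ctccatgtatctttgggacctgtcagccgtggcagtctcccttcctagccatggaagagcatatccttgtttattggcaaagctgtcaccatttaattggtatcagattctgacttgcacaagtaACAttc
SNORD116-1: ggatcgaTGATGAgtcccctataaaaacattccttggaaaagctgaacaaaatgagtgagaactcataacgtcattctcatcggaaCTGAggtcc
SNORD115-1: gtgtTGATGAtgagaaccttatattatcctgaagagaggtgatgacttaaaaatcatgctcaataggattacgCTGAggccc

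SNORD12, SNORD12B and SNORD12C lie in ZFAS1, SNORD50B in SNHG5, SNORA13 in EPB41L4A-AS1, SNORA24 in SNHG8, and SNORD116-1 and SNORD115-1 in SNHG14. On the plus strand they are SNORD12 at chr20:49280683-49280772, SNORD12B at chr20:49280319-49280409, SNORD12C at chr20:49278940-49279028, SNORA13 at chr5:112161485-112161617, SNORA24 at chr4:118279190-118279320, SNORD116-1 at chr15:25051477-25051571 and SNORD115-1 at chr15:25170723-25170804, and on the minus strand SNORD50B at chr6:85677589-85677658. SNORD12, SNORD50B and SNORA24 overlap an annotated exon of their host, and the others are intronic. The library kit selects polyadenylated RNA, which mature snoRNAs lack. Leaving SNHG14 aside, 19 of 21 intronic snoRNA loci belong to rows with some counts, led by SNORD104 in SNHG25 with 2867 over all libraries. Of 26 loci that overlap a host exon, SNORD30 in SNHG1 had 212 counts and 25 were at 0. SNORA71B (intronic, 318 counts), SNORA16A and SNORA17B (both exonic) are single rows with 2 overlapping loci each. Both loci of each enter these numbers with the total of the row. In SNHG14, 64 of the 83 were at 0. How reads lying in more than 1 gene were counted is not given in the sources used here, so a 0 of an exonic snoRNA says nothing of its level.

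The start of a host transcript is where the TOP tract would lie. RefSeq (GRCh38.p14) gives a start for 24 of the 27 host genes looked up, and 6 of them (25%) begin with a C followed by 4 pyrimidines on the transcript strand: ZFAS1, SNHG5, SNHG12, SNHG4, SNHG19 and SNHG18. The same holds for 43 of 63 ribosomal protein genes with an entry (68.3%) and for 4.07% of all 35116 starts. The starts below are those of the first 5 of these 6, and of 3 other hosts with an unadjusted p under 0.05, each with 25 bases before and 25 after the start. Capitals mark the first 5 transcribed bases.
ZFAS1: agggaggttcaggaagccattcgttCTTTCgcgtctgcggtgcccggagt
SNHG5: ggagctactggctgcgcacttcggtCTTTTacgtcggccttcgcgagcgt
SNHG12: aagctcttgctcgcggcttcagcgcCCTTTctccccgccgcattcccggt
SNHG4: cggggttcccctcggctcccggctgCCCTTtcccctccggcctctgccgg
SNHG19: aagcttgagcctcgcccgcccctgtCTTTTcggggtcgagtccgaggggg
GAS5: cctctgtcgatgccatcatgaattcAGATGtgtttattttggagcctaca
EPB41L4A-AS1: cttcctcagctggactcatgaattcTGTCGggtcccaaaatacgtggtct
SNHG14: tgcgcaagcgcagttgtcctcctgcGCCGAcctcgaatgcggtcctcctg

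On the plus strand these are ZFAS1 at chr20:49278617-49278666, SNHG4 at chr5:139274076-139274125, EPB41L4A-AS1 at chr5:112160501-112160550 and SNHG14 at chr15:24823583-24823632, and on the minus strand SNHG5 at chr6:85678709-85678758, SNHG12 at chr1:28581849-28581898, SNHG19 at chr16:2155334-2155383 and GAS5 at chr1:173869021-173869070. GAS5, SNHG14 and EPB41L4A-AS1 do not begin with the tract at these annotated starts, which says only that the letters are not at that position. RefSeq places the start of GAS5 at 173869045 and the GENCODE gene begins at 173868882 on this strand, so the 2 annotations differ in where the transcript starts. They lie farther apart for SNHG14 (RefSeq 24823608, GENCODE 24978583), SNHG12 (28581873 and 28583132) and ZFAS1 (49278642 and 49278178). The SNHG14 start shown, like that of GAS5, lies outside the gene span that was counted.

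Per kilobase of exon, GAS5, the growth arrest specific transcript, had the highest mean of the 24 tested hosts in control, at 107 RPKM (CPM divided by the exon length in kilobases). It was followed by SNHG19 (92.7 RPKM), SNHG8 (89.2), SNHG5 (73.7), SNHG1 (65.3) and ZFAS1 (63.1). DANCR, a transcript that holds back differentiation of epidermal progenitors, was at 58.3 RPKM, SNHG6 at 54.4, SNHG3 at 43.8 and SNHG4 at 28.8 RPKM. Between 10.2 and 18.5 RPKM lay SNHG25, SNHG17, SNHG16, SNHG12, SNHG15, SNHG9 and SNHG7. SNHG11, EPB41L4A-AS1 and SNHG10 were at 7.36 to 7.62 RPKM, SNHG20 at 4.17, SNHG14 at 2.73, SNHG21 at 2.37 and SNHG26 at 1.84 RPKM. The order depends on the annotated exon length, which for SNHG14 sums to 43324 bases and for SNHG19 to 342. The remaining 4 hosts were near the floor over all 12 libraries. SNHG28, a name that covers 2 genes, had 90 counts in total, SNHG22 had 9, SNHG18 had 3 and SNHG27 had 1.

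No host gene passed the test between knock-down and control. The count was 0 of 24 at an edgeR adjusted p below 0.05, where 49 of all 16519 genes tested (0.297%) passed. It was also 0 of 24 by DESeq2, where 356 of the 16519 genes passed, and by limma-voom, where 56 did. At an unadjusted edgeR p below 0.05 there were 5 of 24 hosts, against 12.7% of all genes. These were GAS5, ZFAS1 and EPB41L4A-AS1 with higher and SNHG14 and SNHG4 with lower means in knock-down. Fitted log2 fold changes were above 0 for 12 hosts and below 0 for 12, with a median of −0.01, a lowest of −0.35 and a highest of 0.57. Of all genes 52.4% were above 0 with a median of 0.01, and of 1876 other long non-coding genes 47.9% with a median of −0.02. In none of the 24 hosts were the 2 groups without overlap, compared with 1.22% of all genes.

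**Figure D1:**
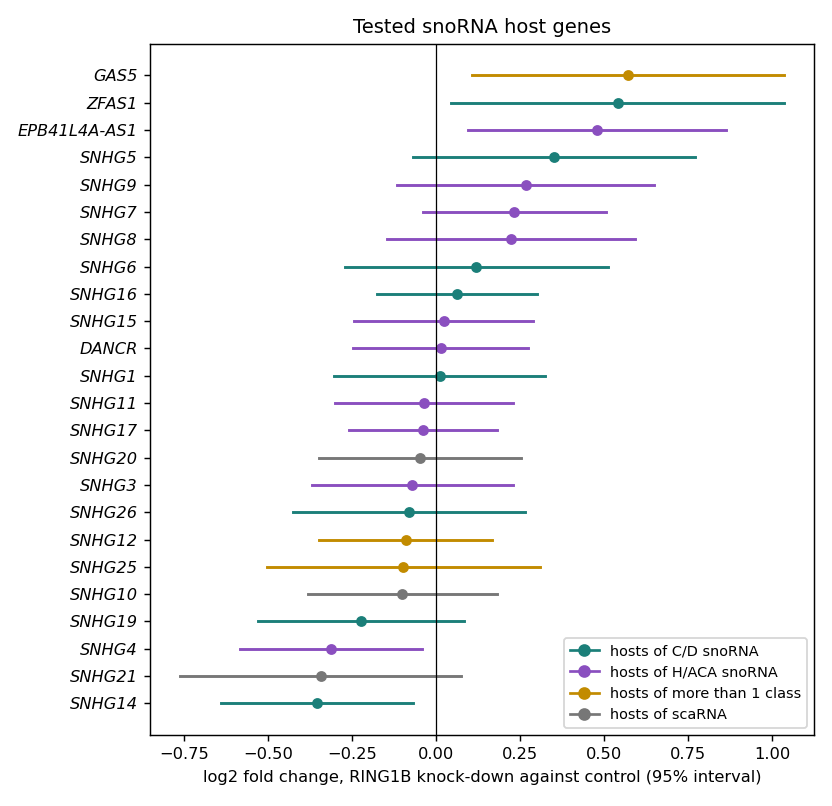
Fitted log2 fold change of each of the 24 tested host genes, knock-down against control, with its 95% interval from edgeR, coloured by the class of snoRNA in the introns. Intervals of GAS5, ZFAS1 and EPB41L4A-AS1 lie above 0 and those of SNHG14 and SNHG4 below 0, before adjustment for the 16519 genes tested; no host passed after adjustment.

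GAS5 carries the largest number of named snoRNAs after SNHG14, and its RNA is known to accumulate when growth stops and translation slows. Its hg38 span is 173863900 to 173868882 on chromosome 1, minus strand. Control libraries ran from 312 CPM through a median of 360 to 535 CPM, and knock-down libraries from 379 through 543 to 964 CPM. Knock-down 2, 4 and 5 exceeded every control, while the other 3 lay within the control range. Means were 389 ± 90.3 and 578 ± 219.9 CPM (SD, n = 6). The log2 fold change was 0.57 (SE 0.217, 95% interval 0.11 to 1.04, edgeR adjusted p = 0.297), and the exact two-sided permutation p was 0.0563. Without knock-down 5 the log2 fold change was 0.37 (edgeR adjusted p = 0.484). GAS5 took 15.5% to 19.8% of all counts of the 28 hosts in control libraries and 19.1% to 28.98% in knock-down libraries.

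ZFAS1, transcribed away from the zinc finger gene ZNFX1, hosts the 3 SNORD12 copies shown above. It spans 49278178 to 49295738 on chromosome 20 (hg38, plus strand). Control libraries ran from 118 CPM through a median of 128 to 221 CPM, and knock-down libraries from 120 through 203 to 316 CPM. The 3 knock-down libraries above every control were again 2, 4 and 5, and the top control, control 6, stood apart from the other 5, which reached at most 134 CPM. The log2 fold change was 0.54 (SE 0.232, 95% interval 0.05 to 1.03, edgeR adjusted p = 0.352, exact permutation p = 0.0909). It was 0.71 without control 6 and 0.38 without knock-down 5 (edgeR adjusted p = 0.132 and 0.575).

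EPB41L4A-AS1 is the host of SNORA13, an H/ACA snoRNA, and is transcribed opposite EPB41L4A. Its span on the plus strand of chromosome 5 is 112160526 to 112164276 (hg38). Control libraries ran from 20.4 CPM through a median of 23.7 to 32.7 CPM, and knock-down libraries from 24.1 through 32.6 to 51.4 CPM. Knock-down 2, 4 and 5 were above every control here too, with knock-down 4 the highest. The log2 fold change was 0.48 (SE 0.180, 95% interval 0.10 to 0.86, edgeR adjusted p = 0.292, exact permutation p = 0.0498). Its counts overlap in 1659 exonic bases with EPB41L4A on the other strand, which had 25 counts over all libraries.

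SNHG14 is the long transcript of the imprinted Prader-Willi region that carries the SNORD115 and SNORD116 clusters and runs antisense through UBE3A. GENCODE places it at 24978583 to 25419462 on the plus strand of chromosome 15 (hg38). Control libraries ran from 91.7 CPM through a median of 115.9 to 145 CPM, and knock-down libraries from 70.7 through 91.3 to 110 CPM. Knock-down 2, 3 and 4 lay below every control, and the groups overlapped. The log2 fold change was −0.35 (SE 0.133, 95% interval −0.64 to −0.07, edgeR adjusted p = 0.294, exact permutation p = 0.0303). Its 2 annotated partners with shared exonic bases that were tested had values nearer 0. SNRPN, which makes a spliceosomal protein, was at −0.13 (SE 0.122) and UBE3A, the ubiquitin ligase, at −0.07 (SE 0.105). PWAR5, named for the Prader-Willi region and host of 2 snoRNAs by position, was farther below 0. It was at −0.89 (SE 0.340, edgeR adjusted p = 0.298), with means of 5.44 ± 3.06 and 2.94 ± 1.13 CPM, and was named after its value was seen.

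SNHG4 hosts SNORA74A and SNORA74D and lies at the start of MATR3, with which it shares 626 exonic bases on the same strand. It spans 139274102 to 139284899 on chromosome 5 (hg38, plus strand). Control libraries ran from 99.96 CPM through a median of 129.7 to 164.5 CPM, and knock-down libraries from 88.6 through 104 to 118 CPM. Knock-down 1, 3 and 4 lay below every control. The log2 fold change was −0.31 (SE 0.127, 95% interval −0.58 to −0.04, edgeR adjusted p = 0.325, exact permutation p = 0.0433). MATR3, a nuclear matrix protein, was at −0.04 (SE 0.0898), and how the shared bases were assigned between the pair is not given.

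**Figure D2:**
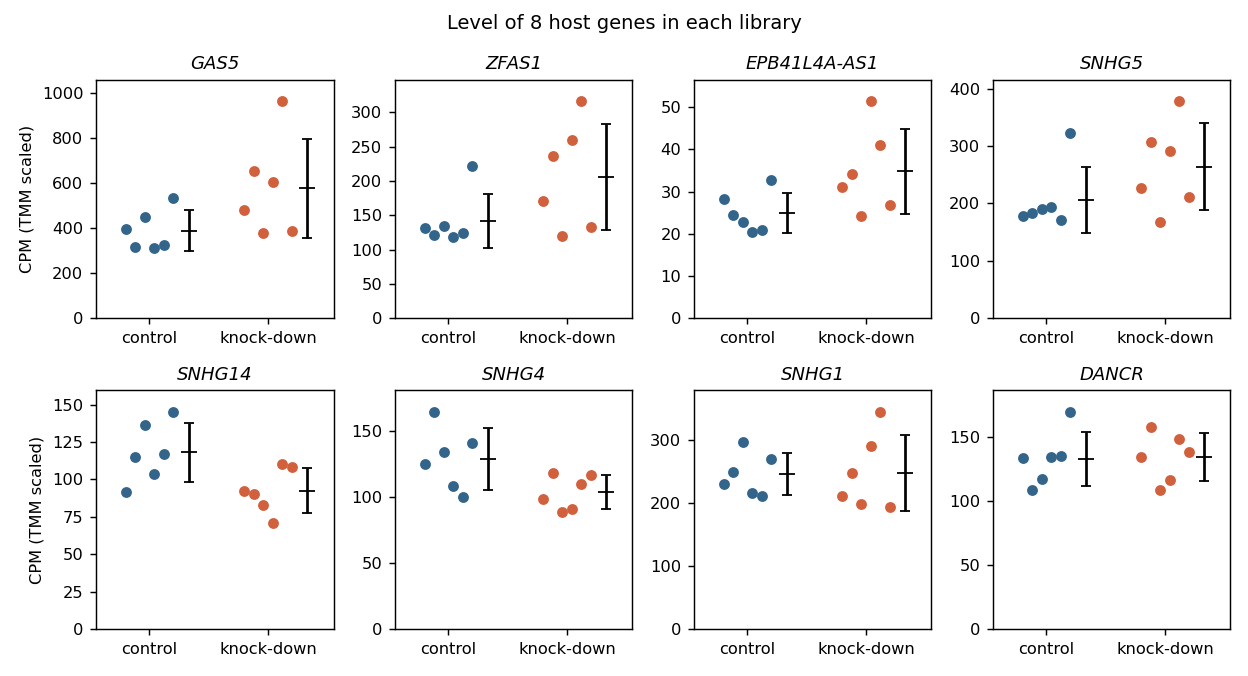
Level of 8 host genes in each library as TMM-scaled CPM, from an axis that starts at 0, with the mean and SD of 6 libraries beside the points. GAS5, ZFAS1 and EPB41L4A-AS1 each have 3 knock-down libraries above all controls, SNHG14 and SNHG4 each have 3 below all controls, and SNHG1 and DANCR have nearly equal means.

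Titles of the libraries carry a letter, D or E, whose meaning the labels do not give, so the 5 hosts were also fitted within each letter. GAS5 had log2 fold changes of 0.79 in D and 0.28 in E libraries, ZFAS1 of 0.73 and 0.38, and EPB41L4A-AS1 of 0.40 and 0.62. SNHG4 was at −0.19 and −0.38 and SNHG14 at −0.08 and −0.52. Each kept its sign, but D holds 2 control and 4 knock-down libraries and E holds 4 control and 2 knock-down libraries, so each value rests on an arm of 2 libraries. Between the letters the sizes differed most for SNHG14 and GAS5, and no difference between letters was tested.

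The other C/D hosts had values closer to 0. SNHG5, which carries SNORD50A and SNORD50B, ran from 172 CPM through a median of 187 to 323 CPM in control and from 168 through 259 to 378 CPM in knock-down (log2 fold change 0.35, SE 0.196, edgeR adjusted p = 0.479). Its top control, control 6, was far above the other 5 controls, and the log2 fold change was 0.52 without it (edgeR adjusted p = 0.144) and 0.22 without knock-down 5. SNHG1, the host of 8 C/D snoRNAs, ran from 210 through 240.01 to 296.5 CPM in control and from 193 through 229 to 344 CPM in knock-down. Its knock-down libraries spread on both sides of the controls, with knock-down 5 above all of them and knock-down 3 and 6 below, and the log2 fold change was 0.01 (95% interval −0.30 to 0.32). SNHG16, which carries 3 SNORD1 copies, ran from 71.4 through 86.9 to 108.6 CPM and from 83.4 through 88.3 to 105 CPM (0.06, 95% interval −0.17 to 0.30). SNHG6 was at 0.12 (SE 0.184), SNHG26 at −0.08 (SE 0.162) and SNHG19, the host of SNORD60, at −0.22 (SE 0.144). Of the 8 tested C/D hosts 5 were above 0, with a median of 0.04.

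Among the 10 tested hosts of H/ACA snoRNAs 6 were above 0, with a median of 0.02. SNHG3, whose 2 snoRNAs SNORA73A and SNORA73B act in cleavage of the ribosomal RNA precursor, ran from 146.5 through 177 to 226 CPM in control and from 123 through 164.5 to 213 CPM in knock-down (log2 fold change −0.07, 95% interval −0.37 to 0.23). DANCR, the host of SNORA26, ran from 109 through 134 to 169.8 CPM and from 109 through 137 to 158 CPM (0.01, 95% interval −0.25 to 0.27). In both genes the ranges of the groups nearly coincide. SNHG9, which starts 99 bases from the ribosomal protein gene RPS2 on the other strand, had 0.27 (SE 0.179), and RPS2 itself 0.17 (SE 0.0949). SNHG7 was at 0.23 (SE 0.128) and SNHG8 at 0.22 (SE 0.173), and without knock-down 4 they were at 0.15 and 0.11. The remaining H/ACA hosts were SNHG15 at 0.02 (SE 0.125), SNHG11 at −0.04 (SE 0.124) and SNHG17 at −0.04 (SE 0.103). Hosts of more than 1 class other than GAS5 were SNHG12 at −0.09 (SE 0.121) and SNHG25 at −0.10 (SE 0.190).

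The 3 tested hosts of scaRNAs all had values below 0, and none had an unadjusted p under 0.05 by edgeR. These were SNHG10 at −0.10 (SE 0.132), SNHG20 at −0.05 (SE 0.141) and SNHG21 at −0.34 (SE 0.195). SNHG21 had means of 2.49 ± 0.374 and 1.96 ± 0.379 CPM (SD, n = 6). Its exact two-sided permutation p was 0.0433, against 0.5 for SNHG10 and 0.6645 for SNHG20. SNHG10 was at −0.19 without control 3, its lowest control. SNHG21 shares 768 exonic bases on the same strand with AC105339.2, which was at −0.80 (SE 0.299, edgeR adjusted p = 0.288). SNHG20 shares 460 with SEC14L1, at 0.00 (SE 0.124).

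Several hosts share a start region with a gene on the other strand. ZBTB37, whose start lies 800 bases from that of GAS5, had a log2 fold change of −0.21 (SE 0.159). ZNFX1, 248 bases from ZFAS1, had −0.21 (SE 0.170), opposite in sign to its host neighbour. SLC3A2, the amino acid transporter subunit 188 bases from SNHG1, was at 0.17 (SE 0.189), TRAF7, 340 bases from SNHG19, at −0.04 (SE 0.177), and ACAA2, 63 bases from the untested SNHG22, at 0.49 (SE 0.252). None of these 5 passed the test, and no difference between a partner and its host was tested. Of the other tested genes that share exonic bases with a host, RCC1 (SNHG3) was at −0.15, TRNAU1AP (SNHG12) at −0.01, SIL1 (SNHG4) at 0.21, MCMDC2 (SNHG6) at 0.23, FAM69B (SNHG7) at 0.07, GLRX5 (SNHG10) at 0.07, AC015802.6 (SNHG16) at 0.30, GAS5-AS1 at 0.00 with an SE of 0.836 at under 1 CPM, and AL590560.1 (SNHG28) at 0.79 with an SE of 0.380.

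Ribosomal protein genes were set beside the hosts because many of them also carry snoRNAs. Of 79 such genes 76 had values above 0, with a median log2 fold change of 0.30. By edgeR 0 passed after adjustment, and 40 had an unadjusted p under 0.05, against 12.7% of all genes. The 28 of them that hold a snoRNA by position in the annotation were all above 0, with a median of 0.32. RPL13, a protein of the large subunit, had the lowest adjusted p among them, with means of 612 ± 75.9 and 829 ± 101 CPM (SD, n = 6) and a log2 fold change of 0.44 (edgeR adjusted p = 0.114). The other 133 tested genes that hold a snoRNA by position had a median of −0.04, with 50 above 0. Only NOP53, a ribosome assembly factor named after its value was seen, was called among them (96.6 ± 16.7 to 166.8 ± 28.04 CPM, 0.79, edgeR adjusted p = 0.0246). Of 32 listed protein-coding hosts outside the ribosome 14 were above 0, with a median of −0.01. HSPA8, the constitutive heat shock protein, was at −0.56 and TPT1, a translationally controlled growth protein whose mRNA has a TOP tract, at 0.58 (edgeR adjusted p = 0.167 and 0.358).

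Host genes differed in how far they moved with the ribosomal protein genes from library to library. The mean log2 CPM of the 79 genes ran from 8.24 to 8.70 in control, highest in control 6, and from 8.43 to 9.06 in knock-down, highest in knock-down 5. Deviations from the group means, over 12 libraries that share their scaling and, for 4 title numbers, a number, gave Pearson r of 0.94 for ZFAS1, 0.91 for SNHG6, 0.90 for SNHG5, 0.89 for GAS5, 0.88 for SNHG12 and 0.82 for SNHG8 (Spearman rho 0.89, 0.85, 0.83, 0.85, 0.80 and 0.895). EPB41L4A-AS1 was at 0.76, SNHG1 at 0.71, SNHG7 and DANCR at 0.65 and SNHG3 at 0.64. SNHG10 was at 0.43, SNHG19 and SNHG17 at 0.33 and SNHG25 at 0.23. Near 0 or below it lay SNHG14 (0.16), SNHG20 (0.13), SNHG15 (0.02), SNHG26 (0.00), SNHG4 (−0.01), SNHG16 (−0.13), SNHG9 (−0.22), SNHG11 (−0.29) and SNHG21 (−0.37). These are descriptions of 12 libraries and were not tested.

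**Figure D3:**
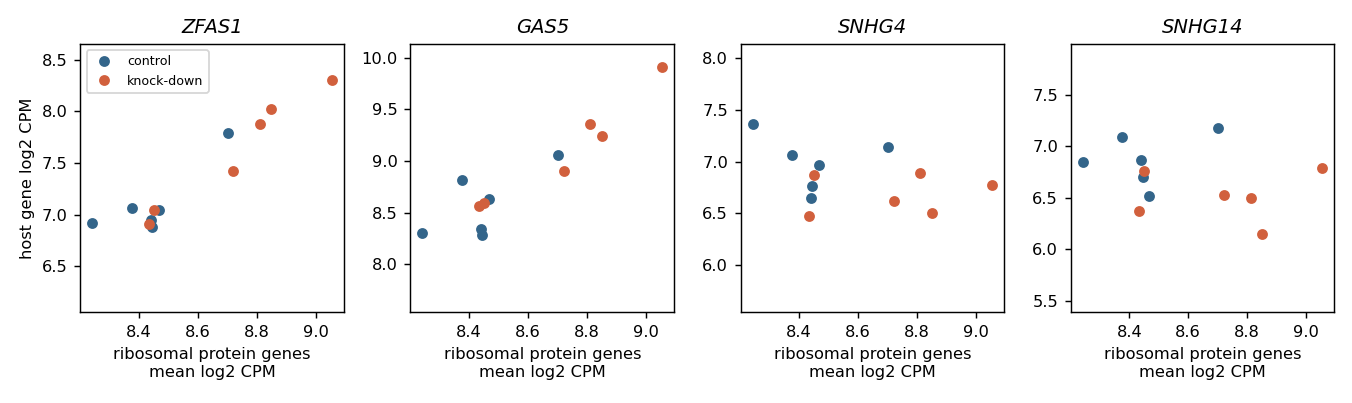
Log2 CPM of 4 host genes against the mean log2 CPM of 79 ribosomal protein genes in each of 12 libraries, with the same span on each vertical axis. ZFAS1 and GAS5 increase along the horizontal axis in both groups (r of 0.94 and 0.89 over deviations from group means), whereas SNHG4 and SNHG14 do not (−0.01 and 0.16).

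By the deviation of the ribosomal mean from its group mean, the libraries farthest from the median were knock-down 3 and 5. Without them r over 10 libraries was 0.89 for ZFAS1, 0.86 for SNHG6 and SNHG8, 0.81 for SNHG5 and SNHG12, 0.80 for GAS5 and 0.69 for EPB41L4A-AS1. It was lower for SNHG7 (0.60), DANCR (0.54), SNHG1 (0.46) and SNHG3 (0.43). Within the 6 control libraries r was 0.84 for ZFAS1, 0.81 for SNHG5 and 0.07 for SNHG1, and within the 6 knock-down libraries 0.98, 0.95 and 0.94. SNHG17 had −0.32 in control and 0.95 in knock-down. In all, 11 of 24 hosts (45.8%) had an r above 0.6, a cut chosen after the values were seen, against 17.2% of 16416 other genes. Of those 11 hosts 9 had a log2 fold change above 0, with a median of 0.22. Of the other 13 hosts 3 did, with a median of −0.08. The same share was not counted among the other genes above the cut, so whether it is particular to hosts was not tested. Among the 5 tested hosts whose RefSeq start begins with a C and 4 pyrimidines, ZFAS1, SNHG5 and SNHG12 had an r above 0.6, and SNHG4 and SNHG19 were below it.

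**Figure D4:**
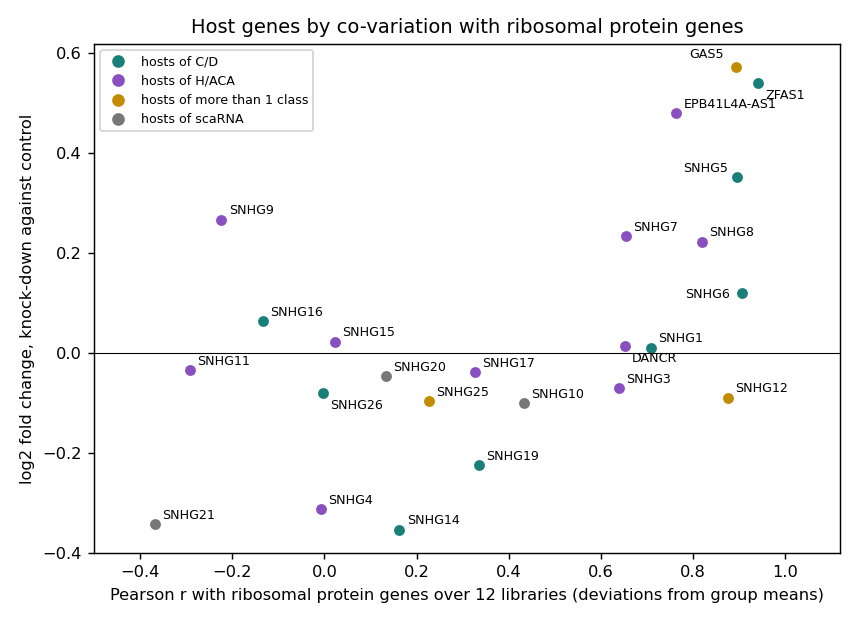
Each of 24 tested host genes by its Pearson r with the mean of 79 ribosomal protein genes over 12 libraries (horizontal) and its log2 fold change in knock-down (vertical), coloured by snoRNA class. GAS5, ZFAS1, EPB41L4A-AS1 and SNHG5 lie at the upper right, SNHG12 has a high r with a value just below 0, and SNHG14, SNHG4 and SNHG21 lie at the lower left.

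Among knock-down libraries the ribosomal mean was highest in 2, 4 and 5, so the hosts picked by their r with it tend to peak there by construction, and the following counts restate that choice. In 8 of the 11 hosts with an r above 0.6, SNHG12, GAS5, SNHG8, EPB41L4A-AS1, SNHG5, SNHG6, SNHG1 and ZFAS1, the highest knock-down values were those of libraries 2, 4 and 5, and in the other 13 hosts this held for SNHG17. In these 3 libraries the 28 hosts took 0.252%, 0.262% and 0.316% of all counts, and in knock-down 1, 3 and 6 they took 0.223%, 0.190% and 0.208%. Control libraries ran from 0.191% to 0.249%, highest in control 6. Mitochondrially encoded genes moved with these libraries: they took 7.64%, 8.42% and 10.01% of counts in knock-down 2, 4 and 5, 5.55% to 6.14% in the other knock-down libraries, 14.4% in control 6 and 4.65% to 7.08% in the other controls. The part of the mitochondrial share in the result was not tested. Leaving out control 6, knock-down 4 and knock-down 5 gave log2 fold changes of 0.40 for GAS5, 0.38 for ZFAS1, 0.31 for EPB41L4A-AS1, −0.27 for SNHG14 and −0.26 for SNHG4, with adjusted p from 0.320 to 0.448 by edgeR.

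Proteins that build and read snoRNAs, and the factors of the decay route that degrades host transcripts, did not pass the test either. Of 8 core proteins of the snoRNA particles 4 had values above 0, and the lowest p was that of FBL, fibrillarin, the C/D methyltransferase (means of 431 ± 38.5 and 511 ± 46.1 CPM, log2 fold change 0.24 by edgeR, adjusted p = 0.288), followed by GAR1 of the H/ACA particle (0.19). Of 14 assembly and processing factors 7 were above 0, with NAF1, an H/ACA assembly factor, at 0.31 (edgeR adjusted p = 0.188) and the nucleolar chaperone NOLC1 at −0.15. Of 20 nonsense-mediated decay factors 5 were above 0, with a median of −0.10. Among these DCP2, the decapping enzyme, averaged 65.4 ± 12.3 CPM in the controls and 44.8 ± 4.68 CPM after knock-down (SD, n = 6), a log2 fold change of −0.55 (edgeR adjusted p = 0.0811), and CASC3 of the exon junction complex was at −0.26 (edgeR adjusted p = 0.407). In bulk tumour libraries, fewer cells of a type and less RNA per cell cannot be told apart for any of these genes.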

How the data were processed

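Polyadenylated RNA of 12 xenograft libraries was sequenced with a stranded kit, per the labels' protocols. The authors deposited 1 table of raw read counts per gene, without normalisation. FastQC, featureCounts, STAR 2.6.0a, R 3.6.0, limma 3.40.2 and the build hg38 are named per the submitters' processing notes. Not given in the sources used here are the strand setting, the treatment of reads shared by genes and any removal of host reads. All 57169 rows have the exons of GENCODE release 29.

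The members and lists were chosen with earlier results of these data known. Counts were filtered by filterByExpr (minimum count 10), which kept 16519 genes with 99.8% of counts, and scaled by TMM (factors 0.921 to 1.04) in edgeR 4.0.16 (R 4.3.3). The groups were compared in edgeR with a robust quasi-likelihood F test without covariates, with Benjamini-Hochberg adjustment over all genes tested and a call below 0.05. SEs and 95% intervals come from the F statistic. The test was checked on simulated counts. Log2 CPM has a prior count of 2, and RPKM divides CPM by the summed exon length. No title number occurs in both groups. The permutation test took all 924 divisions of the 12 libraries, and so treats libraries that share a title number as exchangeable, which need not hold.

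Every member is accounted for. Values by library are given for the 5 hosts with the smallest p and the 5 next highest by mean CPM. Outside them are named RNF2, up to 2 genes per list by p, tested genes whose 5′ end lies within 1000 bases of that of a host on the other strand, and tested genes sharing exonic bases. Alternatives were other scalings, filters and tests (DESeq2 1.42.0, limma-voom 3.58.1), title numbers and letters, and leaving out libraries. Promoter sequences of 1 member were not read, and RefSeq starts of SNHG9, SNHG15 and SNHG25 were not used here.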

Additional observations from a re-analysis of the deposited data

Results flagged for a closer look

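In 48 groups of 6 libraries (24 hosts in 2 groups), 4 held a library far from the others of its group. The rule marks about 1 in 20 single groups by chance if values are normally distributed. The 48 groups reuse the same 12 libraries and several hosts vary together, so the 4 cannot be judged against that rate. Control 6 was the library in 3 of the 4. Those 3 hosts had r of 0.90 to 0.94 with the ribosomal protein mean, so they are not separate observations. SNHG5 was at 322.78 CPM in control 6, and the next highest control was at 193.54 CPM. ZFAS1 was at 221.41 CPM in control 6 against 133.88 CPM in the next, and SNHG6 at 98.856 against 68.175 CPM. SNHG10, a scaRNA host, was at 9.9671 CPM in control 3, below the next lowest control at 14.383 CPM. Control 6 also had the highest ribosomal protein mean and the highest mitochondrial share of the controls, and the part of either was not tested.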

How the results depend on the processing

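The count of hosts called was 0 of those tested in all 25 alternatives, and the median over hosts lay between −0.10 and 0.08. GAS5, ZFAS1, EPB41L4A-AS1, SNHG5, SNHG7, SNHG8, SNHG9, SNHG10, SNHG14, SNHG4, SNHG19 and SNHG21 kept their sign in all 25, with adjusted p of at least 0.132. Of these, without 1 library, some moved by over 1.5 times: GAS5 to 0.37 and SNHG5 to 0.22 (without knock-down 5), SNHG7 to 0.15 (without knock-down 4), SNHG8 to 0.11, 0.14 and 0.35 (without knock-down 4, control 4 and control 6), SNHG9 to 0.41 (without control 5) and SNHG10 to −0.19 and −0.15 (without control 3 and knock-down 5). SNHG12 lay between −0.15 and −0.04 and SNHG6 between 0.02 and 0.26 without 1 library. Signs turned only in hosts near 0, and the cause was not tested. SNHG1 was at −0.0086 by library size alone, −0.0021 without a filter, −0.012 by limma-voom, −0.096 with counts summed by title number and also −0.096 in E libraries, and −0.18 without control 6, knock-down 4 and 5. With summed counts DANCR was at −0.0010, SNHG15 at −0.041 and SNHG11 at 0.0096. SNHG15 was at −0.15 without the 3 libraries. With the letter as covariate DANCR was at −0.0084, SNHG11 at 0.0098 and SNHG3 at 0.039. In D libraries SNHG3 was at 0.12, SNHG12 at 0.028, SNHG26 at 0.039, SNHG20 at 0.12 and SNHG17 at 0.038. In E libraries DANCR was at −0.060, SNHG11 at 0.057 and SNHG6 at −0.047. Leaving out 1 library moved SNHG3 between −0.14 and 0.0081, DANCR between −0.050 and 0.096, SNHG26 between −0.15 and 0.0043, SNHG15 between −0.038 and 0.092, SNHG1 between −0.11 and 0.062, SNHG25 between −0.17 and 0.020, SNHG16 between −0.00098 and 0.12, SNHG20 between −0.17 and 0.017, SNHG17 between −0.090 and 0.020, and SNHG11 between −0.085 and 0.0080. Over all genes 356 were called by DESeq2, 91 with the title number as a random effect, 108 without the 3 libraries, 28 with the letter as covariate, 7 with summed counts, 6 in D and 0 in E libraries (903 at an unadjusted p under 0.05), and 16 to 79 without 1 library, against 49. No paired analysis was possible because no title number occurs in both groups.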

Other observations

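The naming rule leaves out hosts that the count table lists under older names. LRRC75A-AS1, named SNHG29 by RefSeq and host of 3 snoRNAs by position, averaged 488 ± 60.4 CPM over the controls and 655.5 ± 174 CPM over the knock-down libraries (SD, n = 6), a log2 fold change of 0.43 with an SE of 0.150 (edgeR adjusted p = 0.265). C6orf48, named SNHG32 by RefSeq and host of 2, averaged 58.5 ± 6.92 and 69.9 ± 18.3 CPM (SD, n = 6), a log2 fold change of 0.26 with an SE of 0.153 (edgeR adjusted p = 0.509). Neither passed the test, and both were chosen after their values were seen.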
